A study of Arabidopsis thaliana with 24 samples.

Results

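WRKY proteins are plant transcription factors whose DNA-binding domain, a conserved WRKY motif followed by a zinc finger, recognises the W-box element TTGAC in the promoters of defence, senescence and nutrient genes. Many WRKY genes carry W-boxes in their own promoters, and members of the family activate and repress one another between the salicylic acid and jasmonate branches of plant defence. In the jasmonate pathway the hormone joins the F-box protein COI1 to a JAZ repressor, the JAZ protein is degraded, and the transcription factors it held back are released. The levels of 41 WRKY genes were followed here across Arabidopsis seedlings given jasmonate mimics. The 41 genes were taken by name from the table of read counts, where each had a row among the 27416 genes listed, and 37 of them held enough reads to enter the test on 20109 genes. The list was chosen with earlier results of these data known, so shares of members called describe this list and not the whole family. By the structure of the protein the 41 genes fall into group I, groups IIa to IIe and group III.

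Whole 6-day-old seedlings of the T-DNA insertion line jaz9-1, in which JAZ9 is interrupted, and of wild-type Col-0 were treated in liquid medium for 8 h with 1 of 3 compounds or with Mock. The compounds were 2e, 1 of the stereoisomers of coronatine; 12, which the sources used here describe only as a derivative; and 2, coronatine itself, a bacterial mimic of the active jasmonate. The dose given with the series was 1 µM for each. The 8 groups were jaz9-1 2e, jaz9-1 12, jaz9-1 2, jaz9-1 Mock, Col-0 2e, Col-0 12, Col-0 2 and Col-0 Mock, with 3 libraries each. A library came from a pool of 5 to 8 seedlings, so the p-values measure the spread between such pools, and jaz9-1 was a single insertion line. The comparisons ask which WRKY genes each compound moved, whether the stereoisomer differed from coronatine and from 12, and whether the response differed in jaz9-1.

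The libraries held 6226126 to 29404141 gene counts. The 2 shallowest were jaz9-1 2 replicate 3 and jaz9-1 Mock replicate 1, and each library's mean correlation with the other libraries of its group was between 0.934 and 0.976, lowest in the jaz9-1 2 group. Levels are given as CPM, the gene's counts scaled to the library's total after TMM normalization, differences as log2 fold changes (log2FC) with their standard error, and a gene was called where the Benjamini-Hochberg adjusted p of edgeR's quasi-likelihood test over all tested genes (FDR) was below 0.1. JAZ9 itself had 3.62, 2.26 and 2.21 CPM in Mock-treated jaz9-1 and 4.79, 4.91 and 3.01 CPM in Mock-treated Col-0 (log2FC −0.65 ± 0.27, edgeR FDR = 0.256). In treated seedlings JAZ9 was lower in jaz9-1 than in Col-0, by log2FC −1.83 with 2e, −1.45 with 12 and −2.05 with 2, and reads from the gene remained in the line. The summed level of 8 leaf markers ranged from 44743 to 57116 CPM in 2-treated jaz9-1 and from 31966 to 43307 CPM over the other groups, and the sum of 10 root markers ranged from 189 to 348 CPM over all libraries. The part of these shifts in the WRKY results was not tested.

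The stretches upstream of 7 members are shown because these genes carry the results described next: 5 of the genes that rose with a compound and the 2 that fell with 2 in both genotypes. Each runs 5′ to 3′ up to the base before the annotated gene start, 300 bases long, except that of WRKY45, which stops after 42 bases where the next gene, AT3G01980, begins on the same strand. Coordinates and sequence are those of RefSeq's TAIR10.1. Capitals mark the W-box core TTGAC, the G-box CACGTG, which is bound by MYC-type factors of the jasmonate pathway, and the GCC-box GCCGCC, bound by ERF-type factors, each on either strand.
WRKY45 (AT3G01970, chr3:327413-327454, minus strand): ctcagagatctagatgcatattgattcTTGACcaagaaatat
WRKY44 (AT2G37260, chr2:15644511-15644810, plus strand): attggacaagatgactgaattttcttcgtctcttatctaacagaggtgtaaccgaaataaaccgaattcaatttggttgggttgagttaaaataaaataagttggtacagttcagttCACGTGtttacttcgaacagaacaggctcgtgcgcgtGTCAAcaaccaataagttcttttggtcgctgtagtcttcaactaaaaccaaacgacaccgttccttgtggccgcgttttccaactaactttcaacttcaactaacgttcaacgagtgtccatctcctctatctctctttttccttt
WRKY40 (AT1G80840, chr1:30383261-30383560, plus strand): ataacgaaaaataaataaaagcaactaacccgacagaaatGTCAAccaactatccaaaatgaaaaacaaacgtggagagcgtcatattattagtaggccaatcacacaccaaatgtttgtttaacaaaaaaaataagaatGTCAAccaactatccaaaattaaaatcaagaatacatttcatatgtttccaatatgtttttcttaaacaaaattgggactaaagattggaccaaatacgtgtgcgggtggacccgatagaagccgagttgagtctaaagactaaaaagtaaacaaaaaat
WRKY18 (AT4G31800, chr4:15382477-15382776, plus strand): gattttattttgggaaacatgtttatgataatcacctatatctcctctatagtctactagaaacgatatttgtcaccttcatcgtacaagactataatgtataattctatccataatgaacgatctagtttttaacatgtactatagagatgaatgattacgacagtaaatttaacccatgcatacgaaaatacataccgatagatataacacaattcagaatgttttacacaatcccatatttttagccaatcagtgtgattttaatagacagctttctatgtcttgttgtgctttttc
WRKY33 (AT2G38470, chr2:16107935-16108234, plus strand): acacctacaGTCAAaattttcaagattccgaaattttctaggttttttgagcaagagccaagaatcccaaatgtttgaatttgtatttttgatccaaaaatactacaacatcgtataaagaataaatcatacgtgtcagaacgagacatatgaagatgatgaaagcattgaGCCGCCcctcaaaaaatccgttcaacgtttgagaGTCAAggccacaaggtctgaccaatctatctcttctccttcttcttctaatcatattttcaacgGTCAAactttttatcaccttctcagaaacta
WRKY70 (AT3G56400, chr3:20910624-20910923, minus strand): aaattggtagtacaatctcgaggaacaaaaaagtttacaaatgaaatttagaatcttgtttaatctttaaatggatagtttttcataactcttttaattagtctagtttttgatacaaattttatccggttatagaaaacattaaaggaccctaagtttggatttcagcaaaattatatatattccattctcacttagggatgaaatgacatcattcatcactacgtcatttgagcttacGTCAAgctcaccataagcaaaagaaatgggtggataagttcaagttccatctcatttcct
WRKY53 (AT4G23810, chr4:12393983-12394282, minus strand): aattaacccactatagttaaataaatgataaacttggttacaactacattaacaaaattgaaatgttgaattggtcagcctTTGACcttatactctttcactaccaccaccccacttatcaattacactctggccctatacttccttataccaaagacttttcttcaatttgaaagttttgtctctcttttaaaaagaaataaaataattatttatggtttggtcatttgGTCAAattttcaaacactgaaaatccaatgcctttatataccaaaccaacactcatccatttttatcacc

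The W-box core was present in the 300 bases upstream of 30 of the 41 members (73.2%), against 50.4% of the windows of the same length before 27443 protein-coding genes, and 14 members (34.1%) held at least 2 copies, against 17.9% of all windows. The G-box stood in 5 windows of members (12.2%, against 7.09% of all) and the GCC-box in 4 (9.76%, against 2.26%). These are counts of letters and not of bound sites. WRKY33 carried 3 W-box cores and a GCC-box, WRKY44 a W-box core and a G-box, WRKY40 and WRKY53 2 W-box cores each and WRKY70 1. The window of WRKY18 held none of the 3 motifs. Among the 8 members that rose with 2 in Col-0, 5 had a W-box core and 2 a G-box. All 4 members that fell had a W-box core, and so had 17 of the 25 that were not called. With 2 in jaz9-1, a W-box core was present in 6 of the 12 that rose, in both that fell and in 18 of the 23 not called. For WRKY45 these counts include the bases that lie within AT3G01980, for WRKY25 those within AT2G30260 and for WRKY26 those within AT5G07090.

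In Mock-treated Col-0 the members spanned a wide range of levels. By mean CPM, not divided by gene length, WRKY15 was highest at 35.4, followed by WRKY39 at 29.4, WRKY3 at 25.0, WRKY18 at 19.0 and WRKY7 at 18.4. Of these, WRKY15, WRKY39 and WRKY7 belong to group IId, whose members are bound by calmodulin. WRKY45 stood at a mean of 1.96 CPM, WRKY40 at 2.41 and WRKY44 at 1.29. The 4 members left out of the test, WRKY41, WRKY50, WRKY55 and WRKY8, had 31, 36, 5 and 77 reads over all 24 libraries. Of the 41 members, 8 overlap another annotated gene, in each case on the opposite strand (WRKY1, WRKY4, WRKY33, WRKY40, WRKY29, WRKY69, WRKY41 and WRKY53). The study's counting used the strand of the reads.

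Coronatine, 2, raised WRKY18, WRKY40 and WRKY45 by more than 2 log2 units and lowered WRKY53 and WRKY70, in both genotypes. In jaz9-1, 2 raised 12 of the 37 tested members and lowered 2, beside 14.9% of all tested genes raised and 14.2% lowered. In Col-0, 2 raised 8 members and lowered 4, beside 11.9% of all genes raised and 11.2% lowered. Taken in both directions, 37.8% of the tested members were called in jaz9-1 and 32.4% in Col-0, where 29.2% and 23.1% of all genes were. The median log2FC of the members was 0.36 in jaz9-1 and 0.18 in Col-0, against −0.03 and −0.02 over all genes. These are whole seedlings, in which more cells of a type and more RNA per cell cannot be told apart.

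The same 8 genes rose with 2 in both genotypes: WRKY18, WRKY40, WRKY45, WRKY44, WRKY69, WRKY57, WRKY11 and WRKY17. They are all 8 of the genes raised in Col-0 and 8 of the 12 raised in jaz9-1, where WRKY3, WRKY39, WRKY65 and WRKY75 were called as well (log2FC 0.36, 0.35, 0.52 and 1.27). WRKY75 is known for its part in the phosphate starvation response, and WRKY3 for resistance to necrotrophic fungi. WRKY53 and WRKY70 fell in both genotypes, while WRKY30 and WRKY48, a repressor of basal defence (log2FC −1.31 in Col-0), passed the test in Col-0 alone. WRKY48 was also lower with 2 in jaz9-1, with a mean of 1.93 CPM against 4.44 CPM with Mock. Its libraries there did not overlap, although it was not called. In Col-0 the means were 1.43 CPM with 2 and 3.48 CPM with Mock. The genotype difference in the response was tested for each of the 37 members and none was called (edgeR, 2 members at an unadjusted p under 0.05, 0.741% of all genes called; DESeq2 also called 0). By structural group, 2 lowered none of the tested members outside group III in jaz9-1 and 1, WRKY48 of group IIc, in Col-0. In group III, 2 lowered 2 of 7 tested members in jaz9-1 and 3 of 7 in Col-0, beside 14.2% and 11.2% of all genes lowered. None was called as raised, and the median log2FC was −1.45 in jaz9-1 and −0.73 in Col-0. WRKY62 of this group lay above Mock in every library with 2 in Col-0 without being called (log2FC 2.74, edgeR FDR = 0.167). In group IIa coronatine raised 2 of 3 in each genotype and in group IIb none of 2. In group IId it raised 3 of 6 in jaz9-1 and 2 of 6 in Col-0. Of all genes, 14.9% were raised in jaz9-1 and 11.9% in Col-0. Across genes, 28 of the 37 members had the same sign in both genotypes, and the log2 fold changes had a Pearson's r of 0.64 and a Spearman's rho of 0.61, given as a description because genes are not independent replicates.

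**Figure D1:**
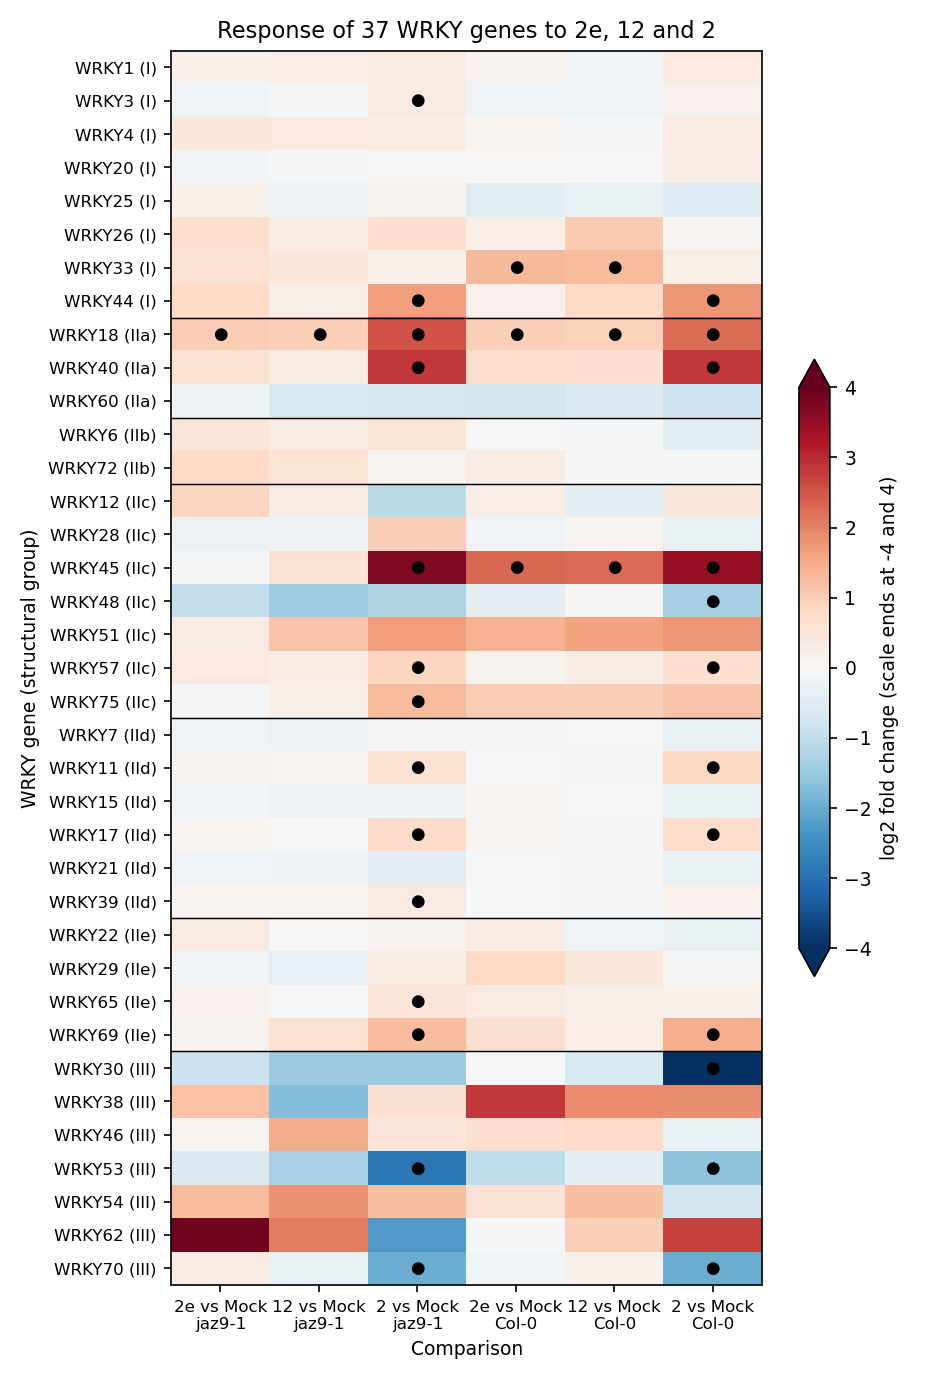
Log2 fold change of each of the 37 tested WRKY genes (rows, with structural group) for 2e, 12 and 2 against Mock in jaz9-1 (left 3 columns) and Col-0 (right 3 columns); red is higher, blue lower, and a dot marks an edgeR FDR below 0.1. Dots gather in the columns of 2, with 14 in jaz9-1 and 12 in Col-0, while 2e and 12 have 1 each in jaz9-1 and 3 each in Col-0.

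Group IIa holds WRKY18, WRKY40 and WRKY60, which bind one another and act together as repressors of immune responses to bacteria and powdery mildew. WRKY18 had 34.2, 42.8 and 39.6 CPM in 2e-treated jaz9-1, 32.2, 43.5 and 35.2 CPM in 12-treated jaz9-1, 96.3, 124 and 111 CPM in 2-treated jaz9-1 and 19.4, 20.1 and 17.9 CPM in Mock-treated jaz9-1. In Col-0 it had 40.4, 32.4 and 39.7 CPM with 2e, 42.0, 31.1 and 35.2 CPM with 12, 91.5, 90.1 and 92.5 CPM with 2 and 21.8, 14.2 and 21.1 CPM with Mock. In both genotypes every treated library lay above every Mock library, and every library with 2 above every library with 2e or 12. WRKY18 was the one member called for all 3 compounds in both genotypes. Its log2FC against Mock was 1.02 ± 0.15 with 2e, 0.94 ± 0.15 with 12 and 2.53 ± 0.15 with 2 in jaz9-1, and 0.96 ± 0.15, 0.91 ± 0.15 and 2.25 ± 0.15 in the same order in Col-0 (edgeR FDR of at most 0.000157). The genotype differences in these responses were 0.06 with 2e (95% interval −0.37 to 0.49), 0.03 with 12 (−0.40 to 0.46) and 0.28 with 2 (−0.15 to 0.70).

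WRKY40 responded to 2 alone by this test. It had 14.7, 14.5 and 18.1 CPM in 2-treated jaz9-1 against 1.74, 4.29 and 0.288 CPM in Mock-treated jaz9-1, and 15.9, 22.4 and 16.7 CPM in 2-treated Col-0 against 1.92, 1.23 and 4.08 CPM in Mock-treated Col-0. The groups did not overlap, and the log2FC was 2.83 ± 0.46 in jaz9-1 (edgeR FDR = 1.57e-05) and 2.83 ± 0.44 in Col-0 (edgeR FDR = 6.83e-06). The size of the rise rested on single Mock libraries, and was 4.10 in jaz9-1 without jaz9-1 Mock replicate 2 and 3.53 in Col-0 without Col-0 Mock replicate 3, still called in both. With 2e WRKY40 had 3.21, 3.21 and 3.77 CPM in jaz9-1 and 4.87, 5.22 and 2.42 CPM in Col-0, and with 12 it had 3.40, 3.30 and 1.85 CPM in jaz9-1 and 4.17, 5.30 and 2.503 CPM in Col-0. These lay within or just above the Mock range, and WRKY40 was below its level with 2 with both compounds in both genotypes (log2FC from −2.46 to −2.13). WRKY60 (AT2G25000) went the other way in each of the 6 comparisons with Mock without passing the test. Its largest difference was with 2 in Col-0, 5.39, 5.99 and 2.40 CPM against 10.2, 3.90 and 10.04 CPM with Mock (log2FC −0.84 ± 0.36, edgeR FDR = 0.105). The libraries of those groups overlapped. Over 12 alternative runs the FDR of this difference ranged from 0.0227 to 0.449, so some of them called it. With 2 in jaz9-1 it had 3.64, 6.997 and 1.71 CPM against 5.50, 7.07 and 7.48 CPM with Mock. WRKY60 had 5.05, 6.14 and 6.13 CPM with 2e and 4.79, 4.31 and 3.77 CPM with 12 in jaz9-1, and 4.74, 4.21 and 5.82 CPM with 2e and 5.45, 5.30 and 5.43 CPM with 12 in Col-0, all between 3.77 and 6.14 CPM.

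WRKY45, a group IIc factor known to activate the phosphate transporter gene PHT1;1 and to promote leaf senescence, rose with 2 more than any other called member in both genotypes, and under 2e and 12 it was lower in jaz9-1 than in Col-0. In jaz9-1 it had 4.18, 1.53 and 1.35 CPM with 2e, 3.35, 2.92 and 4.61 CPM with 12, 17.99, 43.4 and 32.1 CPM with 2 and 2.75, 2.26 and 2.21 CPM with Mock. In Col-0 it had 9.81, 8.07 and 11.9 CPM with 2e, 5.62, 10.1 and 13.2 CPM with 12, 23.3, 19.5 and 24.3 CPM with 2 and 1.15, 2.34 and 2.39 CPM with Mock. With 2 all libraries of both genotypes lay far above Mock, as did those of Col-0 with 2e and 12, whereas those of jaz9-1 overlapped Mock with 2e and lay just above it with 12. The log2FC with 2 was 3.70 ± 0.37 in jaz9-1 and 3.48 ± 0.37 in Col-0, a difference of 0.22 (95% interval −0.84 to 1.28). With 2e the log2FC was −0.09 ± 0.41 in jaz9-1 (95% interval −0.94 to 0.75) and 2.31 ± 0.36 in Col-0 (edgeR FDR = 7.73e-05). With 12 it was 0.62 ± 0.40 in jaz9-1 (95% interval −0.18 to 1.43) and 2.26 ± 0.36 in Col-0 (edgeR FDR = 0.000108).

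Set directly against each other, 2e-treated jaz9-1 had less WRKY45 than 2e-treated Col-0 (log2FC −2.15 ± 0.36, edgeR FDR = 0.000291), and the 3 libraries of jaz9-1 all lay below the 3 of Col-0. Without jaz9-1 2e replicate 1 the difference was −2.78. With 12 the difference was −1.39 ± 0.34 (edgeR FDR = 0.0192), again with no overlap. This second call was lost without Col-0 12 replicate 3 (log2FC −1.11), jaz9-1 12 replicate 1 (−1.32) or jaz9-1 12 replicate 2 (−1.29). The difference between the responses themselves, jaz9-1 minus Col-0, was −2.40 ± 0.55 for 2e (unadjusted p = 0.000144, edgeR FDR = 0.320) and −1.64 ± 0.54 for 12 (unadjusted p = 0.00495, edgeR FDR = 0.568). Neither passed the threshold over all genes, where 0% of genes were called for 2e and 0.00497% for 12, and the estimate for 2e did pass in DESeq2 (log2FC −2.39, FDR = 0.0262, against FDR values from 3.87e-05 to 0.877 over its alternatives). The gene just upstream on the same strand, AT3G01980, was not called in any of the comparisons with Mock (log2FC from −0.20 to 0.33). Nor was it called between genotypes, where its largest difference was 0.48 ± 0.21 under 12 (edgeR FDR = 0.312). It was called as lower with 12 than with 2 in Col-0 (−0.53 ± 0.21, edgeR FDR = 0.0935).

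**Figure D2:**
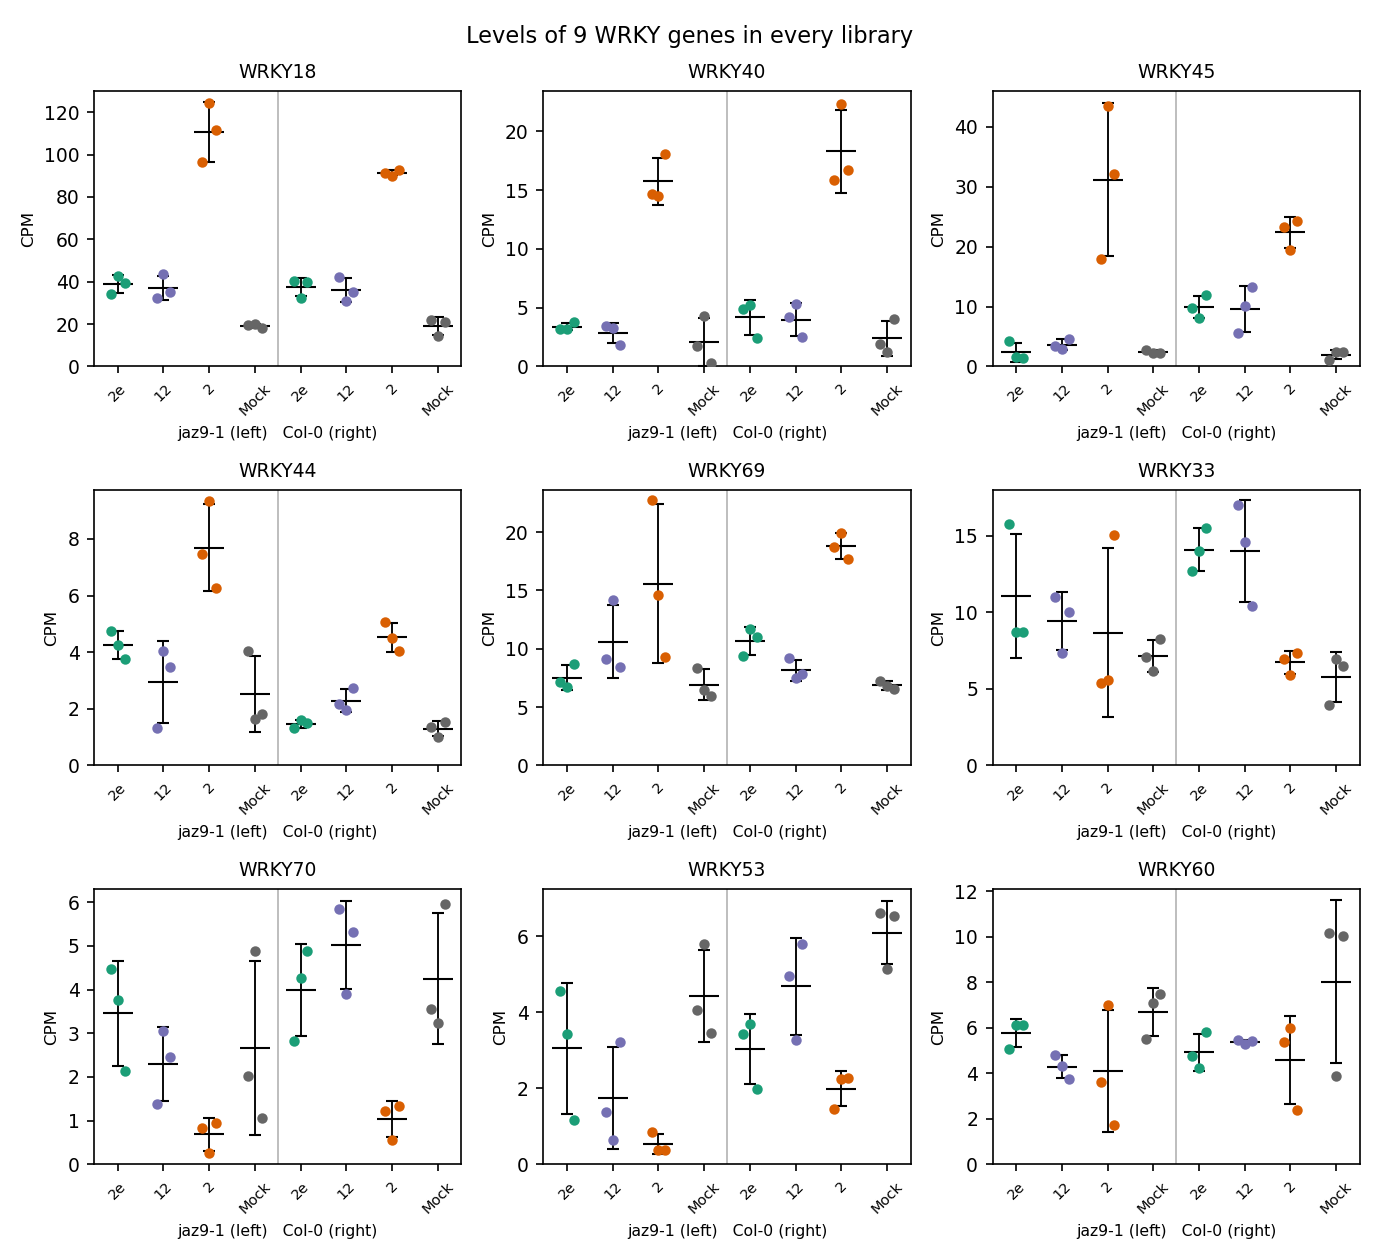
CPM of 9 WRKY genes in each library (points) with the group mean and SD (n = 3; bars), jaz9-1 left of Col-0 and, within each, 2e, 12, 2 and Mock; the vertical scale differs between panels and starts at 0. WRKY18 and WRKY40 step up with 2 in both genotypes, and WRKY70 and WRKY53 are lowest with 2. WRKY45 steps up with 2 in both genotypes and with 2e and 12 in Col-0. In jaz9-1 WRKY45 overlaps Mock with 2e and lies just above it with 12.

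WRKY33, the group I factor required for camalexin synthesis and for resistance to necrotrophic fungi, had the opposite order of compounds. In Col-0 it had 12.7, 14.01 and 15.5 CPM with 2e, 17.0, 14.6 and 10.4 CPM with 12, 6.94, 5.90 and 7.36 CPM with 2 and 3.93, 6.92 and 6.47 CPM with Mock. Every 2e and 12 library lay above every 2 and Mock library, and those with 2 and with Mock overlapped. The log2FC against Mock was 1.28 ± 0.30 with 2e (edgeR FDR = 0.0110), 1.27 ± 0.30 with 12 (edgeR FDR = 0.0123) and 0.23 ± 0.30 with 2 (95% interval −0.40 to 0.85). Against 2, WRKY33 was higher with 2e by 1.06 ± 0.29 (edgeR FDR = 0.00943) and with 12 by 1.05 ± 0.29 (edgeR FDR = 0.0105). Both calls against Mock were lost without Col-0 Mock replicate 1 (log2FC 1.07 with 2e and 1.06 with 12), the lowest of the Mock libraries.

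In jaz9-1, WRKY33 had 15.7, 8.72 and 8.71 CPM with 2e, 11.0, 7.35 and 9.99 CPM with 12, 5.39, 5.57 and 15.03 CPM with 2 and 7.09, 6.17 and 8.25 CPM with Mock. No compound was called (log2FC 0.61 with 2e, 0.42 with 12 and 0.20 with 2). The high value with 2 came from jaz9-1 2 replicate 3, the shallowest library. Over all libraries WRKY33 was not called between 2e and 2 in jaz9-1 (log2FC 0.41, edgeR FDR = 0.392). Without that library it was called as higher with 2e (log2FC 1.00, edgeR FDR = 0.0163). The genotype difference in the response of WRKY33 was −0.67 for 2e (95% interval −1.53 to 0.20) and −0.85 for 12 (−1.72 to 0.02).

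WRKY44, also known as TTG2, is a group I factor of trichome and seed coat development. It had 4.76, 4.25 and 3.77 CPM with 2e, 1.33, 4.06 and 3.46 CPM with 12, 7.47, 9.33 and 6.28 CPM with 2 and 4.05, 1.65 and 1.82 CPM with Mock in jaz9-1. In Col-0 it had 1.32, 1.61 and 1.498 CPM with 2e, 2.17, 1.96 and 2.75 CPM with 12, 5.06, 4.49 and 4.04 CPM with 2 and 1.34, 1.00 and 1.53 CPM with Mock. It rose with 2 in jaz9-1 (log2FC 1.67 ± 0.40, edgeR FDR = 0.00223) and in Col-0 (1.78 ± 0.41, edgeR FDR = 0.00148), with no overlap of libraries. Without the 2 shallowest libraries the value in jaz9-1 was 2.26. Under 2e it was higher in jaz9-1 than in Col-0 (log2FC 1.52 ± 0.40, edgeR FDR = 0.0339), so that WRKY44 and WRKY45 were the 2 members called between genotypes under 2e, in opposite directions, beside 3.35% of all genes (1.24% higher and 2.11% lower). That call for WRKY44 was lost without Col-0 2e replicate 1 (log2FC 1.45) or Col-0 2e replicate 3 (1.52), and no genotype difference in its response to 2e was called (difference 0.64, 95% interval −0.55 to 1.83).

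The other genes that rose with 2 in both genotypes rose less. WRKY69 (AT3G58710) had 22.8, 14.6 and 9.32 CPM in 2-treated jaz9-1 against 8.396, 6.47 and 5.95 CPM in Mock-treated jaz9-1, and 18.7, 19.9 and 17.7 CPM in 2-treated Col-0 against 7.28, 6.81 and 6.52 CPM in Mock-treated Col-0. Its libraries with 2 lay above Mock in both genotypes and were more scattered in jaz9-1 (log2FC 1.22 ± 0.25, edgeR FDR = 0.000319) than in Col-0 (1.45 ± 0.24, edgeR FDR = 1.77e-05). With 2e WRKY69 had 7.19, 6.70 and 8.71 CPM in jaz9-1 and 9.35, 11.7 and 11.0 CPM in Col-0, and with 12 it had 9.15, 14.2 and 8.46 CPM in jaz9-1 and 9.18, 7.46 and 7.88 CPM in Col-0, and it was not called against Mock with either.

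WRKY57 (AT1G69310), which interacts with JAZ proteins in the control of leaf senescence, had 15.1, 17.6 and 20.5 CPM in 2-treated jaz9-1 against 10.7, 9.85 and 8.53 CPM with Mock, and 21.5, 18.5 and 19.7 CPM in 2-treated Col-0 against 12.6, 11.3 and 13.9 CPM with Mock. It was higher with 2 in every library of both genotypes, by log2FC 0.86 ± 0.19 in jaz9-1 and 0.66 ± 0.18 in Col-0. With 2e WRKY57 had 8.65, 15.5 and 13.4 CPM in jaz9-1 and 12.8, 14.3 and 14.1 CPM in Col-0, and with 12 11.9, 12.3 and 11.4 CPM in jaz9-1 and 13.8, 15.9 and 17.0 CPM in Col-0, and it was not called against Mock. WRKY11 and WRKY17, related group IId repressors of basal resistance to bacteria, rose by 0.60 and 0.76 in jaz9-1 and by 0.84 and 0.70 in Col-0 on the log2 scale.

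WRKY70 and WRKY53, group III factors, were the members that fell with 2 in both genotypes. WRKY70 links salicylic acid to the repression of jasmonate-responsive genes, and WRKY53 promotes leaf senescence. WRKY70 had 0.844, 0.259 and 0.951 CPM in 2-treated jaz9-1 against 2.03, 4.89 and 1.05 CPM in Mock-treated jaz9-1, and 1.22, 0.562 and 1.33 CPM in 2-treated Col-0 against 3.54, 3.24 and 5.96 CPM in Mock-treated Col-0. All libraries with 2 lay below Mock, narrowly so in jaz9-1, where the call (log2FC −1.97 ± 0.57, edgeR FDR = 0.0105) was lost without jaz9-1 Mock replicate 2 (−1.11). In Col-0 the log2FC was −1.99 ± 0.49 (edgeR FDR = 0.00288). With 2e WRKY70 had 4.47, 3.77 and 2.14 CPM in jaz9-1 and 2.83, 4.25 and 4.89 CPM in Col-0, and with 12 1.38, 3.04 and 2.46 CPM in jaz9-1 and 5.84, 3.89 and 5.31 CPM in Col-0. These levels overlapped Mock, with log2FC of 0.33 and −0.28 in jaz9-1 and −0.10 and 0.22 in Col-0, and it was above its level with 2 in all 4 of those comparisons (log2FC from 1.69 to 2.30). The call for 12 against 2 in jaz9-1, the 1.69, was lost without jaz9-1 12 replicate 2 (1.45) or jaz9-1 2 replicate 2 (1.33).

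WRKY53 had 0.844, 0.389 and 0.380 CPM in 2-treated jaz9-1 against 4.05, 5.79 and 3.45 CPM with Mock, and 1.47, 2.25 and 2.26 CPM in 2-treated Col-0 against 6.61, 5.13 and 6.52 CPM with Mock. The fall was log2FC −2.88 ± 0.57 in jaz9-1 (edgeR FDR = 0.000197) and −1.62 ± 0.46 in Col-0 (edgeR FDR = 0.0103), with no overlap in either. Without jaz9-1 2 replicate 1 the value in jaz9-1 was −3.51. WRKY53 rests on 13, 3 and 2 reads in the 2-treated jaz9-1 libraries. With 2e it had 4.57, 3.42 and 1.18 CPM in jaz9-1 and 3.43, 3.69 and 1.98 CPM in Col-0, and with 12 it had 1.38, 0.634 and 3.23 CPM in jaz9-1 and 4.95, 3.28 and 5.80 CPM in Col-0. None of these was called against Mock, although all 4 log2 fold changes were below 0. WRKY54, the nearest relative of WRKY70, had 1, 8 and 13 reads with 2e, 13, 3 and 13 with 12, 1, 9 and 1 with 2 and 0, 1 and 5 with Mock in jaz9-1. In Col-0 it had 16, 10 and 18 reads with 2e, 30, 22 and 17 with 12, 7, 3 and 7 with 2 and 0, 2 and 22 with Mock, and it was not called for any compound.

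**Figure D3:**
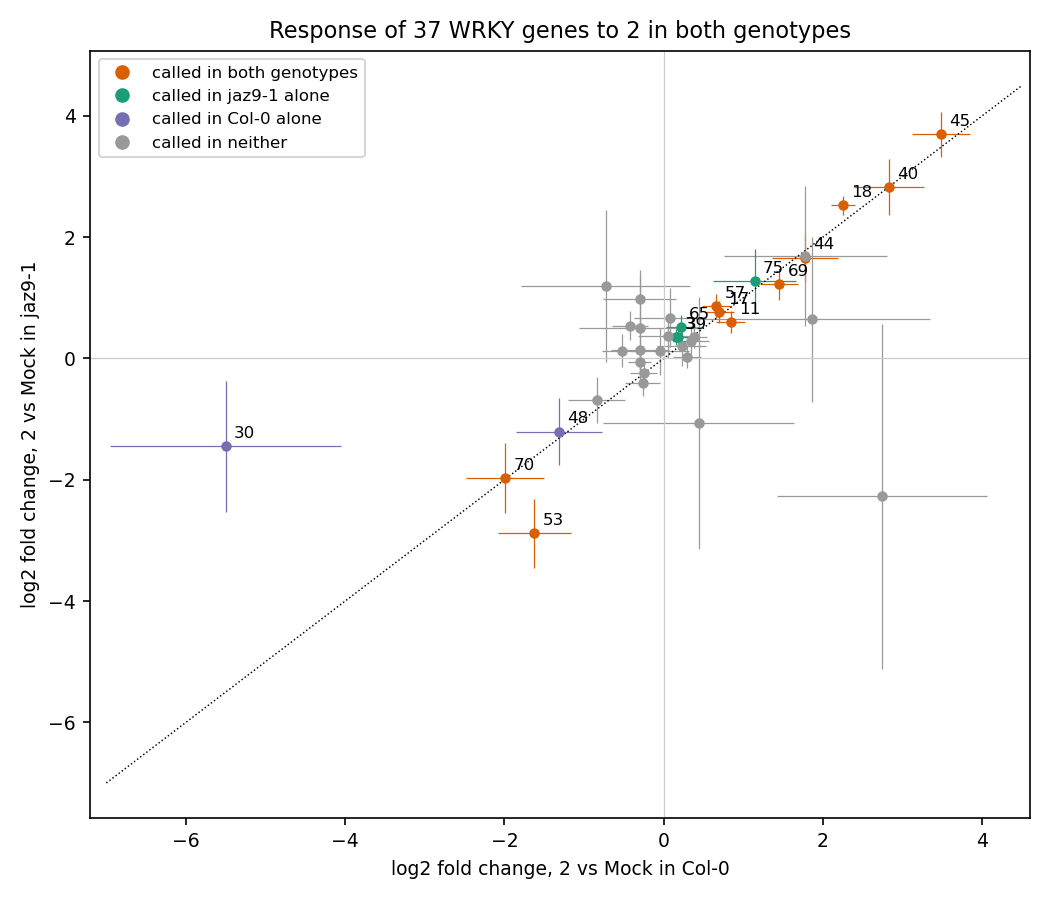
Log2 fold change of the 37 tested WRKY genes with 2 against Mock in Col-0 (horizontal axis) and jaz9-1 (vertical axis), with standard errors as bars; the dotted line marks equal change, colours mark calls at an edgeR FDR below 0.1, and numbers name called genes. The 2 genotypes share no library, 28 of 37 genes have the same sign, and WRKY45 lies farthest up in both, while genes with wide bars, such as WRKY30, have few reads.

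WRKY30 and WRKY62, group III members with few reads, differed between the genotypes under 2. WRKY30 (AT5G24110), which interacts with WRKY53 and WRKY70, had 3, 4 and 7 reads in 2-treated jaz9-1 and 0, 0 and 1 reads in 2-treated Col-0, against 22, 3 and 19 reads in Mock-treated Col-0. In Mock-treated jaz9-1 it had 13, 31 and 9 reads. With 2e it had 14, 10 and 14 reads in jaz9-1 and 32, 24 and 9 in Col-0, and with 12 9, 11 and 1 in jaz9-1 and 31, 16 and 0 in Col-0, so 2-treated Col-0 was the group nearly without reads. The level in 2-treated Col-0, 1 read in all, was 65.1-fold below the 44 reads with Mock, with an exact 95% counting interval of 11.1 to 2628, and 2-treated jaz9-1 stood 28.5-fold above it (4.33 to 1205). WRKY62 (AT5G01900), a repressor of basal defence that responds to salicylic acid and jasmonate, had 0 reads in all 2-treated jaz9-1 libraries and 28, 11 and 30 reads in 2-treated Col-0. With Mock it had 0, 1 and 0 reads in jaz9-1 and 0, 2 and 5 in Col-0. With 2e it had 15, 0 and 6 reads in jaz9-1 and 0, 6 and 5 in Col-0, and with 12 0, 0 and 6 in jaz9-1 and 12, 7 and 2 in Col-0. With a floor of 3 reads over the group, WRKY62 was at least 11.3-fold lower in 2-treated jaz9-1 than in 2-treated Col-0, and the exact 95% counting interval of that ratio starts lower, at 8.95-fold. The edgeR FDR of these genotype calls was 0.0751 for WRKY30 and 0.0563 for WRKY62, and each was lost without any 1 of 5 libraries. For WRKY30 these were Col-0 2 replicates 1, 2 and 3 and jaz9-1 2 replicates 2 and 3 (fitted log2FC 4.06, 4.39, 6.22, 4.74 and 3.76). For WRKY62 they were Col-0 2 replicates 1 and 3 and jaz9-1 2 replicates 1, 2 and 3 (−7.16, −7.04, −7.18, −7.21 and −7.21, fitted values that depend on the prior count and are no bound).

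Under 2, 4 members were called between jaz9-1 and Col-0 (2 higher and 2 lower, beside 8.28% of all genes, 4.8% higher and 3.48% lower): WRKY29 and WRKY30 were higher and WRKY53 and WRKY62 lower. WRKY29 (AT4G23550), an early factor of the flagellin response, had 5.26, 7.13 and 8.56 CPM in jaz9-1 and 2.98, 1.12 and 3.02 CPM in Col-0, with no overlap (log2FC 1.49 ± 0.37, edgeR FDR = 0.0137). It was in the same direction with Mock, at 6.22, 5.56 and 4.22 CPM in jaz9-1 and 2.11, 1.12 and 3.57 CPM in Col-0, again without overlap (log2FC 1.17 ± 0.37, edgeR FDR = 0.119), and no genotype difference in its response to 2 was called (difference 0.32, 95% interval −0.74 to 1.38). WRKY29 had 5.05, 4.32 and 5.34 CPM in jaz9-1 and 3.82, 4.25 and 4.14 CPM in Col-0 with 2e, and 3.88, 5.45 and 3.38 CPM in jaz9-1 and 3.73, 3.09 and 2.99 CPM in Col-0 with 12. WRKY53 was lower in jaz9-1 under 2 by −1.71 ± 0.57 (edgeR FDR = 0.0771), and this call was lost without Col-0 2 replicate 2 (log2FC −1.63), Col-0 2 replicate 3 (−1.60), jaz9-1 2 replicate 2 (−1.52) or jaz9-1 2 replicate 3 (−1.57), while without jaz9-1 2 replicate 1 it was −2.34. Under Mock no member was called between genotypes (edgeR, 2 members at an unadjusted p under 0.05, 2.53% of all genes called, 1.19% higher and 1.34% lower), and DESeq2 called 1, WRKY29. Under 12 WRKY45 was the single member called, as lower, beside 3.42% of all genes (1.86% higher and 1.56% lower). Of the 8 leaf markers, 5 were higher and 1 lower in jaz9-1 than in Col-0 under 2, and likewise 5 higher and 1 lower under 12, and the part of this in the WRKY differences was not tested.

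2e and 12 raised few members, WRKY18 in both genotypes and WRKY33 and WRKY45 in Col-0, and no member passed the test as lower with them. In jaz9-1, 2e and 12 each raised 1 of the 37, WRKY18, beside 1.73% of all genes raised with 2e and 2.01% with 12 (1.97% and 2.5% called in either direction). In Col-0 each raised 3, WRKY18, WRKY33 and WRKY45, beside 2.41% of all genes raised with 2e and 2.19% with 12 (2.75% and 3.05% called in either direction), so 8.11% of tested members were called with each. The comparisons of 2e and of 12 with Mock share the Mock libraries of each genotype. WRKY18 is the 1 gene of the 3 raised in Col-0 that was also raised in jaz9-1. At an unadjusted p under 0.05 in edgeR, 7 members differed from Mock with 2e and 4 with 12 in Col-0, and 4 with each in jaz9-1. The share of all genes below that p was not computed, so these counts show nothing particular to WRKY genes.

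The stereoisomer and coronatine were compared at the same dose and time, as 2 of 6 pairs of compounds. In jaz9-1, 2e left 3 members higher and 10 lower than 2 did (25.5% of all genes called, 12.2% higher and 13.3% lower), and in Col-0 3 members higher and 8 lower (17.5%, 8.51% higher and 9.01% lower). The genes lower with 2e than with 2 in both genotypes were WRKY18, WRKY40, WRKY45, WRKY57, WRKY69, WRKY11 and WRKY17, 7 of the 10 in jaz9-1 and 7 of the 8 in Col-0. The calls of WRKY57 were lost in jaz9-1 without jaz9-1 2 replicate 2 (log2FC −0.48), jaz9-1 2 replicate 3 (−0.37) or jaz9-1 2e replicate 1 (−0.29), and in Col-0 without Col-0 2 replicate 1 (−0.49) or Col-0 2e replicate 1 (−0.51). WRKY70 was higher with 2e than with 2 in both, by 2.30 ± 0.56 in jaz9-1 and 1.88 ± 0.48 in Col-0. In jaz9-1, WRKY62 was also called as higher with 2e than with 2 (edgeR FDR = 0.0637). WRKY62 had 15, 0 and 6 reads there with 2e, against 0 in every library with 2. Its call was lost without jaz9-1 2 replicate 1, 2 or 3, or without jaz9-1 2e replicate 1. The gap for WRKY45 was −3.79 ± 0.37 in jaz9-1 (−4.42 without jaz9-1 2e replicate 1) and −1.18 ± 0.31 in Col-0. Compound 12 differed from 2 in 13 members in each genotype, 2 higher and 11 lower in jaz9-1 (24.2% of all genes called, 11.4% higher and 12.8% lower) and 5 higher and 8 lower in Col-0 (16.9%, 7.59% higher and 9.31% lower). Among the members described in detail, several of these calls were lost without single libraries. In jaz9-1 these were WRKY53 without 12 replicate 3 (log2FC 0.84) or 2 replicate 2 (1.37) or 3 (1.43), WRKY57 without 2 replicate 3 (−0.46), and WRKY69 without 12 replicate 1 (−0.52) or 3 (−0.48) or 2 replicate 1 (−0.21). In Col-0 they were WRKY30 without 12 replicate 1 (fitted log2FC 3.501), WRKY44 without any 1 of the 6 libraries (−1.15 to −0.89), and WRKY53 without any 1 of them but 12 replicate 2 (1.03 to 1.34).

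No member was called between 2e and 12 in either genotype (edgeR, 0 at an unadjusted p under 0.05 in both; DESeq2 also 0), where 0.0646% of all genes were called in jaz9-1 (0.0547% higher and 0.00995% lower) and 0% in Col-0. The 95% interval of the log2 difference lay within ±1, a change of 2-fold either way, for 19 of the 37 members in jaz9-1 and for 21 in Col-0, and its median half-width was 0.73 in jaz9-1 and 0.71 in Col-0. For WRKY18 the difference was 0.08 in jaz9-1 (95% interval −0.21 to 0.38) and 0.06 in Col-0 (−0.23 to 0.34). For WRKY45 it was −0.72 in jaz9-1 (−1.50 to 0.07) and 0.04 in Col-0 (−0.59 to 0.67), and for the low-count members, such as WRKY38 and WRKY62, the intervals spanned several log2 units. For those members a sizeable difference between 2e and 12 would not have been seen.

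**Figure D4:**
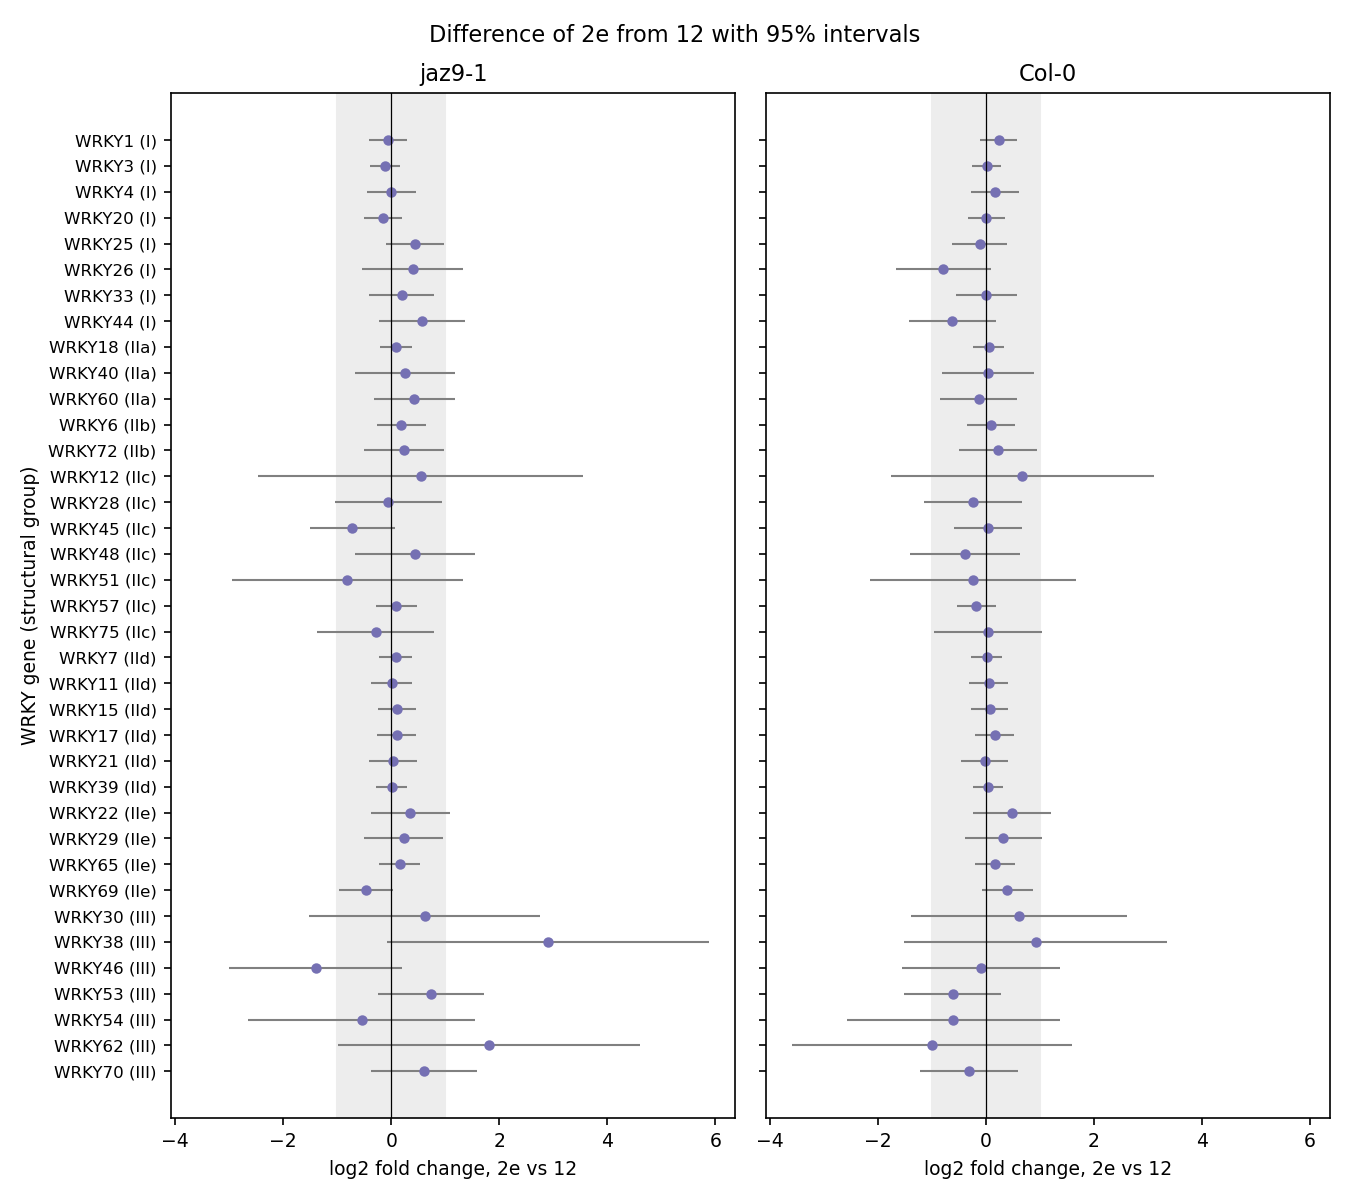
Log2 difference of 2e from 12 for each of the 37 tested WRKY genes (points) with its 95% interval (lines) in jaz9-1 (left) and Col-0 (right); the grey band spans −1 to 1. Every interval includes 0, and 19 in jaz9-1 and 21 in Col-0 lie wholly inside the band.

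Of 25 genes that encode partners, upstream kinases or known targets of WRKY proteins, 23 were tested. In jaz9-1, 2 raised 4 of them and lowered 4, and in Col-0 it raised 2 and lowered 4. Of all genes, 29.2% were called with 2 in either direction in jaz9-1 and 23.1% in Col-0, so the counts for 2 were near the background. Stereoisomer 2e raised 3 in each genotype, beside 1.73% of all genes raised in jaz9-1 and 2.41% in Col-0. Compound 12 raised 4 in each, beside 2.01% and 2.19%. Neither lowered any of this list, which was chosen with earlier results of these data known. JAV1, a VQ protein that binds WRKY51 and JAZ8 and restrains jasmonate defence, rose with every compound, by 0.96 with 2e, 1.11 with 12 and 2.61 with 2 in jaz9-1 and by 0.92, 0.73 and 2.11 in the same order in Col-0. SIB2, a VQ protein that binds WRKY33, was, like WRKY33, higher with 2e and 12 than with Mock in Col-0. It had 50.3, 43.0 and 60.8 CPM with 2e, 46.2, 40.6 and 58.5 CPM with 12, 11.4, 7.21 and 7.23 CPM with 2 and 12.2, 17.4 and 14.7 CPM with Mock in Col-0, so that 2e and 12 stood above and 2 below Mock with no overlap. The log2FC was 1.80 ± 0.20 with 2e, 1.71 ± 0.20 with 12 and −0.75 ± 0.21 with 2 (edgeR FDR of at most 0.00983).

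In jaz9-1, SIB2 had 25.7, 23.6 and 14.8 CPM with 2e, 23.99, 26.5 and 21.8 CPM with 12, 12.1, 11.1 and 9.13 CPM with 2 and 10.7, 15.1 and 10.4 CPM with Mock. It rose there with 2e (log2FC 0.80 ± 0.21, edgeR FDR = 0.0474, with 1 library inside the Mock range) and with 12 (0.98 ± 0.21, edgeR FDR = 0.0064), to levels below those of Col-0 under 2e (log2FC −1.28 ± 0.20, edgeR FDR = 0.000133) and under 12 (−1.01 ± 0.20, edgeR FDR = 0.00259). MPK3, the kinase that phosphorylates WRKY33, rose with all 3 compounds in jaz9-1 (log2FC 0.79 with 2e, 0.79 with 12 and 0.83 with 2). In Col-0 MPK3 rose with 2e (0.71) and 12 (0.85) and was not called with 2 (0.24, edgeR FDR = 0.222). CYP71A12, a gene of indole-derived defence compounds downstream of WRKY33, rose with 12, by 3.01 ± 0.87 in jaz9-1 and 3.39 ± 0.79 in Col-0. Its level with 2e was 0.972, 0.488 and 0.955 CPM in jaz9-1 and 20.9, 0.803 and 1.498 CPM in Col-0, where 1 library set the mean. FRK1, a flagellin-induced kinase gene used as a reporter of WRKY22 and WRKY29, fell with 2, to 1, 1 and 0 reads in 2-treated jaz9-1, against 17, 41 and 9 reads in Mock-treated jaz9-1, and to 0, 0 and 6 reads in 2-treated Col-0, against 16, 7 and 76 reads in Mock-treated Col-0.

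The sum of 10 early touch and wound genes ranged from 127 to 198 CPM over all libraries, from 174 to 198 CPM in 2e-treated Col-0 and from 130 to 167 CPM in Mock-treated Col-0, and 3 of its 9 tested members rose with 2e in Col-0, beside 2.41% of all genes. With 2, 4 of the 9 rose and 1 fell in jaz9-1, beside 14.9% of all genes raised and 14.2% lowered. In Col-0 4 rose and 3 fell with 2, beside 11.9% raised and 11.2% lowered. With 12, 1 rose in each genotype, beside 2.01% of all genes in jaz9-1 and 2.19% in Col-0. With 2e 1 rose in jaz9-1, beside 1.73%. The leaf markers moved with the treatments as well. Of the 8, 4 were higher with 2 in jaz9-1, beside 14.9% of all genes. In Col-0 4 were lower with 12, beside 0.855%, and 4 lower with 2, beside 11.2%. Their part in the WRKY results was not tested.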

How the data were processed

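RNA from pooled Arabidopsis seedlings was sequenced as 24 libraries. The deposited file gave raw whole-number counts per gene. Before deposit the authors trimmed reads with Trimmomatic 0.39, aligned them to TAIR10 with HISAT2 2.2.1 and counted them with featureCounts 2.0.1. From these counts, genes with few reads were left out with filterByExpr, TMM factors were computed and all 24 libraries were fitted together with edgeR 4.0.16 (R 4.3.3), 1 coefficient per group. Comparisons were tested by quasi-likelihood, with Benjamini-Hochberg adjustment over 20109 genes and a threshold of 0.1. Standard errors were computed back from that test, as the size of the log2FC over the square root of the test's F value. The 95% intervals of log2 fold changes were built from them, so both are approximate. Intervals on read ratios are exact, at 95%, and cover counting error only. The script was tested on simulated data. Alternatives were DESeq2 1.42.0, other scaling, filter, threshold and sample choices, a replicate block, and each library left out in turn. The members and the gene lists were chosen with earlier results of these data known. Every library's value is given for members past the threshold and 2.5-fold against Mock, for members called between genotypes, and for WRKY18, WRKY40, WRKY60, WRKY33, WRKY53, WRKY54, WRKY57 and WRKY70 whatever their values; from the partner list, at most 4 genes per comparison with the lowest FDR were named, and JAZ9 as the interrupted gene. Sequences were matched by locus tag to RefSeq TAIR10.1, for 41 of 41 members.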

Additional observations from a re-analysis of the deposited data

How the results depend on the processing

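Over the 14 members described in detail, no called result changed sign under any alternative run; among the 200 results that were not called, 65 changed sign under at least 1, such as WRKY70 with 2e and 12 in jaz9-1 and with 2e in Col-0, and WRKY33 with 2 in jaz9-1. RLE scaling moved called log2 fold changes by at most 0.0153. DESeq2 called 1 member between genotypes under Mock, 3 under 12 and 1 for the genotype difference in response to 2e. Without a count filter, 3 members were called between genotypes under 12, and 1 each for the genotype difference in response to 2e and to 12. Fitting only the groups compared gave 9 members for 2 against Mock in jaz9-1, 1 between genotypes under 2, 4 under 12, 8 for 2e against 2 in jaz9-1 and 5 for 12 against 2 in jaz9-1. At an FDR of 0.05 there were 1 between genotypes under 2, and in jaz9-1 8 for 2e against 2 and 8 for 12 against 2. With a 2.5-fold minimum as well, 1 member each was called for 2e and 12 against Mock in Col-0, 0 each in jaz9-1, and 6 for 2 in jaz9-1; 2e against 2 gave 6 in jaz9-1 and 4 in Col-0, and 12 against 2 gave 6 in jaz9-1 and 5 in Col-0. Without the 2 shallowest libraries, an alternative chosen after seeing the data, 1 member was called between genotypes under 2. The cause of these shifts was not tested.

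With single libraries left out, 2 against Mock called 11 to 16 members in jaz9-1 and 11 to 13 in Col-0, 2e called 1 to 1 in jaz9-1 and 2 to 3 in Col-0, and 12 called 1 to 2 in jaz9-1 and 2 to 3 in Col-0. Between genotypes the counts were 0 to 1 under Mock, 1 to 5 under 2, 1 to 3 under 2e and 0 to 2 under 12. For the genotype difference in response they were 0 to 1 for 2, 0 to 1 for 2e and 0 to 0 for 12. The 2e against 2 counts were 8 to 12 in jaz9-1 and 10 to 11 in Col-0, 12 against 2 gave 8 to 12 in jaz9-1 and 9 to 11 in Col-0, and 2e against 12 gave 0 to 0 in both.

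Same-numbered libraries did not deviate together, with correlations from −0.051 to 0.065 over 84 pairs, and 12 of 24 libraries correlated best with their own number. With the replicate number as a block, 2 called 13 members in jaz9-1 and 11 in Col-0, and every other count of calls lay within 1.5 times the one without it. Group III members with under 10 reads in a library limit what can be seen at this depth.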
